A study of Rattus norvegicus with 4 samples.

Results

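Kidneys of Brown Norway (BN) rats, an inbred strain with normal blood pressure, were compared between males exposed to nicotine before birth and males exposed to saline before birth. Both groups were 9 weeks old when their total RNA was taken. Equal amounts of RNA from 12 animals of a group were pooled and hybridised to 1 Affymetrix RAE-230A array, so the comparison rests on 2 of the 4 arrays of the study. The other 2 arrays carried pools from spontaneously hypertensive rats (SHR), an inbred strain with inherited high blood pressure, 13 animals exposed to nicotine and 12 to saline. They were also males of 9 weeks, and are given here only beside the BN values. The sources used here do not state the dose or route of nicotine, the number of litters or the hour of tissue collection. All 15866 probe sets outside the Affymetrix controls were compared. Because each group is 1 pool, every value below is a size with no replicate error, and no p-value was computed.

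Nicotine crosses the placenta and acts on nicotinic acetylcholine receptors, cation channels that are opened by acetylcholine. The kidney filters blood in the glomerulus, whose outer cells are the podocytes, and then recovers or secretes solutes along the proximal tubule, the thick ascending limb, the distal convoluted tubule and the collecting duct. Many kidney genes also follow the time of day through the circadian clock, a loop of transcription factors present in most cells.

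Signals are in arbitrary MAS5 units on a linear scale and ratios are taken only within a gene, since the level of one gene cannot be set against that of another. Before a ratio was taken, any signal under 44.5 was set to 44.5, a floor at the 40th percentile of the signals of all arrays. A gene counted as measured in BN where its higher BN signal reached 89.0, which is 2 times the floor. A dim gene can therefore be measured only through the pool where it is higher, which widens the ratios near the limit. "At least" before the fold of a gene marks a bound, used where one signal lay under the floor. Of 10411 genes named on the array, 5366 were measured in BN. The floor was reached by 58.95% of probe sets in the BN nicotine pool and 59.8% in the BN saline pool. The ratio of 3' to 5' signal, a sign of RNA integrity, was 1.49 in the nicotine pool and 1.54 in the saline pool for beta-actin, 1.09 and 1.07 for Gapdh, and 1.71 and 2.22 for hexokinase.

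The tissue label was checked against marker genes. All 21 proximal tubule genes on the array were measured, among them the phosphate carrier Slc34a1 (3871.9 under nicotine, 3888.3 under saline) and the endocytic receptor Lrp2 (2172.1 and 2221.4). Umod, made by the thick ascending limb, read 4076.2 and 4043.8, and Aqp2, the water channel of the collecting duct, read 903.9 and 1011.9. Of the 7 adrenal cortex markers on the array none was measured, and their highest BN signal was 42.2. None of the 7 lymphocyte and 2 neutrophil markers was measured either. Parvalbumin, Pvalb, a marker of the distal convoluted tubule, lay under the floor in both pools, at 2.1 and 2.5. Slc12a3, the thiazide-sensitive transporter of the same cells, was measured, at 400.1 and 400.7.

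Most of the kidney transcriptome differed little between the BN pools. Of the 5366 measured genes, 51.5% were higher under nicotine and 48.5% lower. The log2 ratio of nicotine over saline had a median of 0.01 and an SD of 0.19 over the measured genes, and 91.6% of genes lay within 1.25-fold. Past 1.5-fold were 77 genes (1.43% of those measured), of which 39 (0.727%) were higher under nicotine and 38 (0.708%) were lower. In SHR 1.08% of measured genes were that much higher and 0.786% that much lower. Beyond 2-fold there were 3 higher genes (0.0559%) and 5 lower genes (0.0932%), and beyond 3-fold none. The spread depended strongly on signal. With the genes divided by signal into 5 equal bins, the dimmest bin, with mean BN signals from 59.1 to 119.3, had an SD of 0.29, and 52 of its 1074 genes passed 1.5-fold. The brightest bin, from 497.9 to 8554.4, had an SD of 0.10, and 0 of its 1073 genes did.

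**Figure D1:**
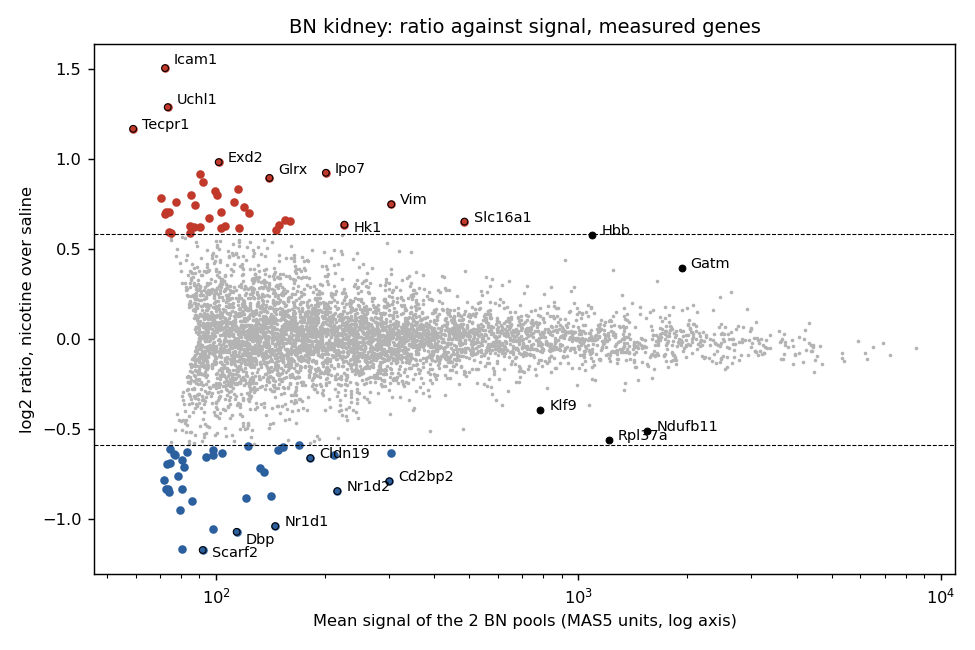
The log2 ratio of nicotine over saline in BN kidney (vertical axis) against the mean signal of both BN pools (horizontal log axis, MAS5 units), 1 point for each of 5366 measured genes, with dashed lines at 1.5-fold. Red points are the 39 genes past the line on the higher side and blue points the 38 on the lower side, and the cloud narrows from an SD of 0.29 in the dimmest of 5 bins to 0.10 in the brightest.

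The largest difference was in Icam1, the adhesion molecule on endothelium and tubule cells that holds leukocytes. It read 126.2 in the nicotine pool and 18.5 in the saline pool, at least 2.84-fold higher under nicotine. Both SHR pools read close to the BN nicotine pool, at 128.0 under nicotine and 125.6 under saline, so the low array was the BN saline pool. Uchl1, a ubiquitin hydrolase known from neurons and from injured podocytes, read 108.6 and 38.6, at least 2.44-fold higher. It was also higher in the SHR nicotine pool, at 84.4 against 7.2, though under the limit for a measured gene. Tecpr1, which helps autophagosomes fuse with lysosomes, read 99.9 and 18.2, at least 2.24-fold higher, against 103.0 and 118.9 in SHR. These were the only 3 of the 77 genes past 1.5-fold with a BN signal under the floor, so their ratios depend on where the floor is set.

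Among brighter genes, Ipo7, an importin that carries ribosomal proteins and other cargo into the nucleus, read 263.2 in the nicotine pool and 138.9 in the saline pool, 1.90-fold higher. The SHR pools read 289.5 and 318.7, above both BN pools. Vim, the intermediate filament vimentin of mesenchymal cells and injured tubules, read 381.8 and 227.4, 1.68-fold higher. Here the BN nicotine pool stood above the other arrays, since SHR read 265.6 under nicotine and 238.5 under saline. Slc16a1, the monocarboxylate carrier MCT1 for lactate and pyruvate, read 592.8 and 377.2, 1.57-fold higher. It was far higher in SHR, at 1214.7 and 1319.7, and both BN pools lay below both SHR pools. Hk1, the hexokinase that traps glucose in the cell, read 275.1 and 177.2, 1.55-fold higher, with the BN saline pool below 257.9 and 266.8 in SHR.

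On the lower side, Scarf2, a scavenger receptor family member, read 56.6 in the nicotine pool and 127.2 in the saline pool, 2.25-fold lower. Dusp12, an atypical protein phosphatase, read 49.9 and 111.7, 2.24-fold lower, and Plxna3, a receptor for class 3 semaphorins, read 63.7 and 132.3, 2.08-fold lower. In SHR, Scarf2 read 147.1 and 151.8, Dusp12 87.5 and 80.2, and Plxna3 81.1 and 131.2. Las1l, which processes ribosomal RNA, was 1.93-fold lower (54.3 against 104.7), and the alanine transaminase gene Gpt was 1.86-fold lower (60.2 against 112.0). S100a13, a calcium-binding protein that takes part in release of fibroblast growth factor, was 1.84-fold lower (85.2 against 157.1), and Sertad1, a regulator of E2F and cyclin-dependent kinase, 1.83-fold lower (100.2 against 183.0). Cd2bp2, a protein of the U5 particle of the spliceosome, was 1.73-fold lower, at 220.6 against 381.1, with 350.7 and 359.3 in SHR. Snrnp200, the helicase of that particle, was 1.67-fold lower in BN (101.4 against 169.3) and 1.51-fold lower in SHR (163.7 against 246.7).

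**Figure D2:**
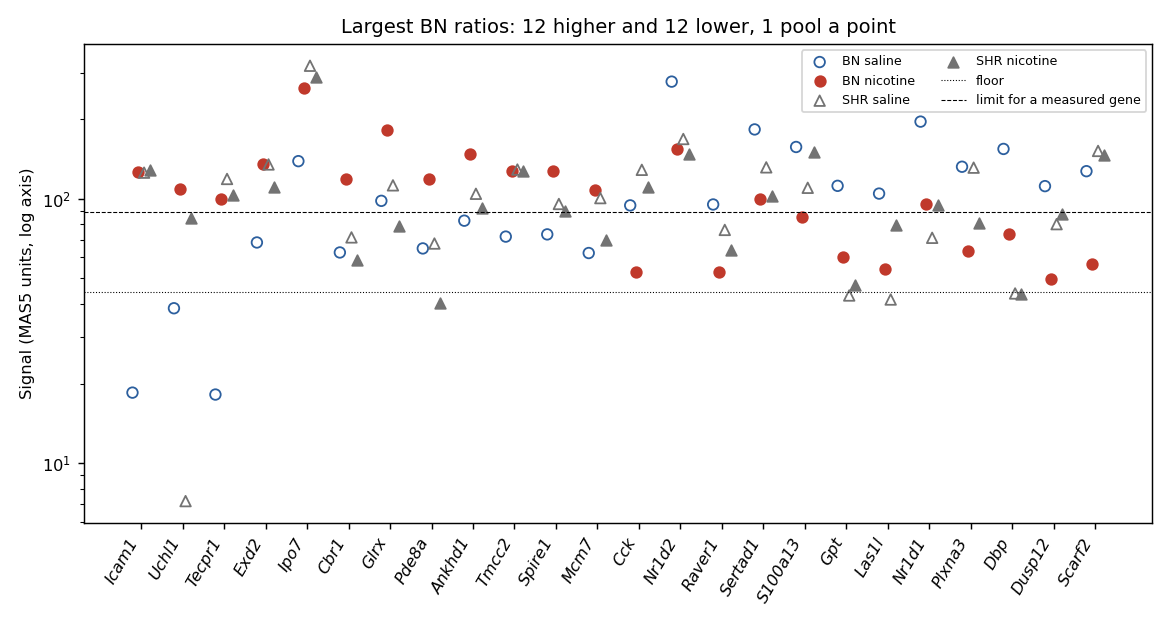
Signal on each of the 4 arrays (vertical log axis, MAS5 units) for the genes at both ends of the BN ratios, 12 on each side, with circles for BN, triangles for SHR, filled symbols for nicotine and open symbols for saline. For Icam1, Tecpr1, Exd2, Ipo7 and Tmcc2, among others, the BN saline pool lies below the other 3 pools, whereas for Scarf2, Dusp12 and Cck, among others, the BN nicotine pool lies below the other 3.

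Which of the BN pools lay further from the mean of both SHR pools was counted for all 77 genes past 1.5-fold. Among the 39 higher genes it was the saline pool in 21 and the nicotine pool in 18. Among the 38 lower genes it was the saline pool in 22 and the nicotine pool in 16. The same count was not made over all measured genes, and it includes genes not measured in SHR, such as Gpt and Cbx7. It therefore does not tell which BN pool is unusual. In SHR, the nicotine ratio had the same direction as in BN for 15 of the 39 higher and for 21 of the 38 lower genes. The median SHR log2 ratios were -0.07 and -0.04. Agreement in direction was not counted over all measured genes either, and genes not measured in SHR are included. Dbp, under the floor in both SHR pools, counts as not having the same direction. Past 1.5-fold in both strains were Qtrt1 (91.8 against 56.3 in BN, 109.9 against 60.6 in SHR), a transfer RNA modifying enzyme, on the higher side, and Elp6 (81.4 against 126.2, and 69.1 against 122.6), of the Elongator complex, Plxna3 and Snrnp200 on the lower side. Stat5a, a transcription factor of cytokine and growth hormone signalling, went opposite ways. It read 100.4 against 164.8 in BN and 149.9 against 99.0 in SHR. With 1 array in each group the strain difference in response has no test.

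The remaining higher genes past 1.5-fold covered several functions. Cbr1, a carbonyl reductase that detoxifies quinones and aldehydes, was 1.89-fold higher (118.4 against 62.7). Glrx, the glutaredoxin that removes glutathione from proteins, was 1.86-fold higher by its brighter probe set (182.6 against 98.3). Its other measured probe set had a log2 ratio of 0.04. Exd2, an exonuclease of DNA repair, was 1.98-fold higher (135.1 against 68.4), and Mcm7, a subunit of the replicative helicase, 1.74-fold higher (108.4 against 62.4). Pde8a, which degrades cyclic AMP, was 1.83-fold higher (119.0 against 64.9), and Spire1, an actin nucleator, 1.74-fold higher (127.5 against 73.4). Between 1.78-fold and 1.62-fold higher followed Ankhd1, Tmcc2, the splicing factor Wbp11, Rexo1, the transcription factor Myrf, Marf1, the protein kinase C substrate Marcks, the interferon-induced Rsad2, the keratin Krt18, Meaf6 of histone acetyltransferase complexes and the BMP antagonist Nbl1. Just past the threshold stood Spa17, Kctd12, Mcat, Tbc1d9b, Tmem63a, Depdc5, Zzef1, the carbonic anhydrase Car3, Bin1, Tor2a, Pik3r4, the ephrin Efna1, the inositol carrier Slc2a13 and Sbf1, from 1.59-fold downwards.

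The remaining lower genes included Raver1, the peptide hormone gene Cck (53.0 against 94.5), Mob3a, the vesicle protein Sv2b, Sult4a1 and Xpo5, the exporter of microRNA precursors, from 1.80-fold to 1.69-fold lower. Slco1a4, an organic anion carrier, was 1.63-fold lower (62.2 against 101.5), and Atp7b, a copper pump, 1.59-fold lower (62.3 against 99.1). Also lower were the Polycomb protein Cbx7 (1.57-fold, 73.1 against 114.8), Mnat1 of the kinase that activates cyclin-dependent kinases (1.56-fold), Mitf (1.55-fold), the deacetylase Hdac3 (1.51-fold, 122.1 against 184.7) and the acetyltransferase Kat14 (135.1 against 202.9). Hdac3 went the other way in SHR, at 156.9 against 105.6. Gjb1, the gap junction protein connexin 32, was 1.53-fold lower (117.0 against 179.5). Between 1.61-fold and 1.51-fold lower were also Bud23, Sdr39u1, Inpp5b, the ephrin Efnb1, Hcfc1r1, Tmem106c, the solute carrier Slc12a9, Pcyox1 and Slain2.

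Since dim genes scatter more, each ratio was also divided by the SD of the ratios of the 500 genes nearest in mean signal. This gives a size relative to genes of like brightness and is not a test. On that scale Slc16a1 was furthest on the higher side at 5.73, followed by Hbb at 5.57, Ipo7 at 5.37 and Vim at 5.22. Furthest on the lower side were Cd2bp2 at -5.68, the ribosomal protein gene Rpl37a at -5.55, Ndufb11, a subunit of complex I of the respiratory chain, at -5.26, and the clock genes Nr1d1 at -5.06, Nr1d2 at -4.88 and Dbp at -4.72. Several of these are bright genes that did not reach 1.5-fold. Rpl37a read 979.7 against 1446.2, with 1235.6 and 1200.5 in SHR. Ndufb11 read 1278.3 against 1821.6, with 1955.1 and 1816.6 in SHR. Gatm, which makes the creatine precursor guanidinoacetate in the proximal tubule, read 2188.9 against 1663.8, and Actr2 of the actin-branching Arp2/3 complex read 1055.9 against 779.0. Klk1b3, a tissue kallikrein with near-identical relatives on the genome, read 1411.2 against 1080.4. Api5, an inhibitor of apoptosis, read 349.7 against 241.9. Fcf1, which helps process ribosomal RNA, read 398.9 against 562.9, and Ssr2 of the translocon complex of the endoplasmic reticulum read 322.1 against 458.2.

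Neither Rpl37a nor Ndufb11 stood for its complex. Of 27 other ribosomal protein genes measured, 9 were higher and 18 lower, the log2 ratios ran from -0.11 to 0.32, and the median was -0.01. Their furthest members were Rpl14 at 0.32, Rpl27 and Rps15 at 0.18 and Rps23 at 0.17. Of 50 other respiratory chain genes, 22 were higher and 28 lower, from -0.24 to 0.21, again with a median of -0.01. Uqcrq stood at -0.24, Atp5me at 0.21, Ndufa5 at -0.19 and Ndufv1 at 0.17. By the brightest probe set no gene of either list reached 1.25-fold, which 8.44% of all measured genes did, but a dimmer probe set of Rpl7 read 76.2 against 153.5.

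The circadian clock list had 3 members past 1.5-fold, more than any other list. The lists were chosen with earlier results of these data known. In the clock, CLOCK and BMAL1 switch on genes with E-box sequences, among them the repressors of the Per and Cry families, the nuclear receptors Nr1d1 and Nr1d2 (REV-ERB alpha and beta) and the output factors Dbp, Tef and Hlf. Nr1d1 and Nr1d2 in turn hold down Bmal1 and Nfil3. The promoter windows of these genes are shown because 3 of them differed together. They are the RefSeq windows on GRCr8, an assembly of a BN rat, and run from 250 bases before a transcript start to 50 after it. Capitals mark matches, on either strand, to 4 motifs: the E-box CACGTG, the E-box-like CACGTT, the D-box TTATGTAA and the REV-ERB/ROR element TAGGTCA. The windows are chr1:105312006-105312305 on the + strand for Dbp, chr10:84231763-84232062 and chr10:84229405-84229704 on the - strand for 2 starts of Nr1d1, chr15:9954784-9955083 on the + strand for Nr1d2, and chr1:176766078-176766377 on the + strand for Bmal1.
Dbp: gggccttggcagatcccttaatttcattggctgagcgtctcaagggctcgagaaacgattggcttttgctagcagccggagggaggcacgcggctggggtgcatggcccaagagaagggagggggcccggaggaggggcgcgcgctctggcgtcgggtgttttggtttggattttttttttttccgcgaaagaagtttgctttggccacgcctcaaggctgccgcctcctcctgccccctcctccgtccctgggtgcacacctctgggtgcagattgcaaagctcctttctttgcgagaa
Nr1d1, first start: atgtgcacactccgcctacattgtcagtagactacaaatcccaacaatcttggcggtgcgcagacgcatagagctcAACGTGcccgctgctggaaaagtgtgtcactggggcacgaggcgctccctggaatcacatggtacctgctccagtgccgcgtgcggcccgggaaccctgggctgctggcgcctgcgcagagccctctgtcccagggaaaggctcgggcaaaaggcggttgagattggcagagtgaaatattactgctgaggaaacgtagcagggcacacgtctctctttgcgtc
Nr1d1, second start: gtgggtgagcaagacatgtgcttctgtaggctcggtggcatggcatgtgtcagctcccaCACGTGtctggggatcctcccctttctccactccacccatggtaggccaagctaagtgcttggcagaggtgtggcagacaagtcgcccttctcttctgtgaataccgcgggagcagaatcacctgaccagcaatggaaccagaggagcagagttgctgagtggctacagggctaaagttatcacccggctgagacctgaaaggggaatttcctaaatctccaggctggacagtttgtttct
Nr1d2: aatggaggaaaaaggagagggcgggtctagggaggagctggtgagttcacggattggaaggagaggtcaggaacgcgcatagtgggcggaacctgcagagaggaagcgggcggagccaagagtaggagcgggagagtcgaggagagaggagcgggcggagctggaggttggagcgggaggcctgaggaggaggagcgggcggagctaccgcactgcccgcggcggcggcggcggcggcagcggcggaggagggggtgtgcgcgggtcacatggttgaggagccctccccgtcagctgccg
Bmal1: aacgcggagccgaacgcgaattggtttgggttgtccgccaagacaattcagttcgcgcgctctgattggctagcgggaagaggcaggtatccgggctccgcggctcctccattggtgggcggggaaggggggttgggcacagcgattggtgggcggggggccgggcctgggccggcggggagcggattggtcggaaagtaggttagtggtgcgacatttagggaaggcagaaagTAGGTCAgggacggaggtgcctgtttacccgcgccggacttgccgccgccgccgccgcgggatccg

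The second Nr1d1 window held the E-box and the first the E-box-like sequence, the Bmal1 window held the REV-ERB/ROR element, and the Dbp and Nr1d2 windows held none of the 4. Of all 33469 windows in the table, 6.42% held CACGTG, 4.83% CACGTT, 0.893% TTATGTAA and 2.63% TAGGTCA, and no printed window holds more than 1 match. Of 14 clock genes with a window, Nr1d1, Tef, Bhlhe40 and Bhlhe41 held CACGTG in at least 1 window. Cry2, Nr1d1 and Per2 held CACGTT, Per2 held TTATGTAA and Bmal1 held TAGGTCA. A gene can have several windows, so genes with a motif cannot be set against the shares of windows. These matches are descriptions of the windows only.

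Dbp read 73.6 in the BN nicotine pool and 154.4 in the BN saline pool, 2.10-fold lower under nicotine, with 43.7 and 43.9 in SHR. Nr1d1 read 95.4 and 195.9, 2.05-fold lower, with 94.7 and 71.2 in SHR. Nr1d2 read 154.7 and 277.6, 1.79-fold lower, with 147.3 and 168.4 in SHR. For all 3 genes the BN saline pool was the highest of the 4 arrays. A second measured probe set of Nr1d2 read 161.3 and 258.1, a log2 ratio of -0.68 beside -0.84 for the brighter one.

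Of the 8 clock genes measured in BN, 7 were lower and 1 higher, where 48.5% of all measured genes were lower. Past 1.5-fold were 3 of the 8, all lower, where 0.708% of all measured genes were that much lower. Dbp met the limit only in the saline pool. By their brightest probe sets the others differed less. Csnk1d, a kinase that marks Per proteins, had a log2 ratio of -0.13, Cry2 -0.08, Hlf -0.06, Bhlhe40 -0.01 and Clock 0.07, and the list had a median of -0.10. A second measured probe set of Clock read 105.3 against 74.7, a log2 ratio of 0.49. A further 8 clock genes on the array were under the limit, and their signals are given as values only. Per1 read 47.6 against 79.0, Tef 28.6 against 47.2 and Bhlhe41 34.9 against 55.9, all lower in the nicotine pool. Bmal1 read 87.6 against 68.4 and Nfil3 54.7 against 32.6, both higher in it, and Per2 read 85.9 against 79.6. Per3 and Csnk1e stayed under the floor in both pools.

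**Figure D3:**
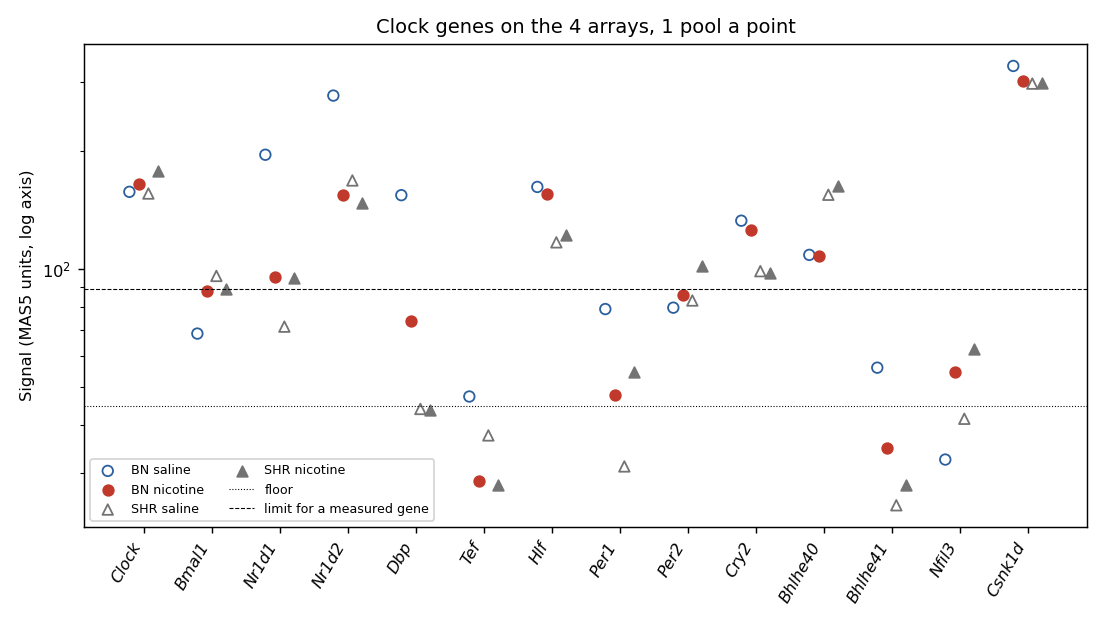
Signal on each of the 4 arrays (vertical log axis, MAS5 units) for 14 clock genes, with circles for BN, triangles for SHR, filled symbols for nicotine and open symbols for saline; dotted and dashed lines mark the floor at 44.5 and the limit at 89.0. The BN saline pool is the highest of the 4 for Nr1d1, Nr1d2, Dbp, Tef, Hlf, Per1, Cry2, Bhlhe41 and Csnk1d, by little for several of these, and the lowest for Bmal1, Nfil3 and Per2.

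Genes that answer glucocorticoids were described because several of them also follow the time of day. Of 14 measured, 6 were higher and 8 lower, where 48.5% of all measured genes were lower. The median log2 ratio was -0.09, and none passed 1.5-fold, which 1.43% of all measured genes did. Klf9 read 678.5 against 890.6 in BN and 576.6 against 800.5 in SHR, lower under nicotine in both strains. A second, dimmer probe set of Klf9 had a log2 ratio of -0.41 in BN beside -0.39 for the brighter one. Fkbp5, which dampens the glucocorticoid receptor, read 110.7 against 129.7, the receptor gene Nr3c1 148.1 against 171.4, and the kinase Sgk1 785.5 against 890.6. Pdk4, which turns off pyruvate use, went the other way at 166.3 against 131.6.

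Around Icam1, the other genes of leukocyte adhesion and of NF-kB, the transcription factor of inflammation, showed smaller differences. Of 10 measured, 7 were higher and 3 lower, where 51.5% of all measured genes were higher. The median was 0.03, and only Icam1 passed 1.5-fold. Vcam1, another adhesion molecule of endothelium, read 90.9 against 67.9, and Irf1, a factor induced by interferon and NF-kB, read 96.5 against 69.7. Icam1, Vcam1 and Irf1 met the limit only in the nicotine pool. Icam2 read 97.2 against 121.5, and the NF-kB subunits Nfkb1 and Rela had ratios of 0.02 and -0.12. The cytokine genes Tnf, Il1b, Il6 and Cxcl1 and the selectin genes Sele and Selp stayed under the floor in both pools. The injury marker Havcr1 did so too, at 7.6 and 5.0, and Lcn2 read 59.2 and 51.2.

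Of 15 markers of macrophages and other leukocytes on the array 4 were measured, 3 higher and 1 lower, with a median log2 ratio of 0.29. Lyz2, the macrophage lysozyme, read 1044.3 against 869.2, and Fcer1g 241.0 against 246.0. The growth factor receptor gene Csf1r read 104.8 against 84.5, and Laptm5 94.9 against 75.4. Csf1r and Laptm5 met the limit only in the nicotine pool, so the median cannot be set against the 0.01 over all measured genes. Summed over all 15 the signal was 1980.6 under nicotine and 1780.1 under saline, but without Lyz2 it was 936.3 and 910.9. The 11 markers under the limit summed to 495.6 and 505.0, with 4 higher, 3 lower and 4 under the floor in both pools, among these Itgam (3.8 and 3.7) and Cd68 (10.6 and 15.8). Of 9 measured genes of antigen presentation, 8 were higher and 1 lower, where 51.5% of all measured genes were higher, with a median of 0.07, led by the class II gene RT1-Ba at 0.38 and the protease Ctss at 0.32, then RT1-Db1 at 0.22, with RT1-DMb at -0.17. In a whole kidney, more cells of a type and more RNA per cell cannot be told apart. The part of these markers in the Icam1 difference was not tested.

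Of 7 measured interferon response genes, 3 were higher and 4 lower. Irf1 stood at 0.47, Stat2 at -0.24 and Bst2 at -0.17, and Rsad2, which was not in the list, at 0.71. Irf7, the master factor of the interferon response, read 76.1 against 109.7, while all 8 measured in SHR were higher under nicotine there, where 48.4% of all measured genes were higher. Of 4 erythroid markers on the array 2 were measured. Hbb, a beta globin gene, read 1310.6 against 876.9 in BN and 824.5 against 1111.7 in SHR. Slc4a1, the anion exchanger of red cells and of the collecting duct, read 180.2 against 162.0. Of 8 endothelial markers 7 were higher and 1 lower, against 51.5% higher over all measured BN genes, with a median of 0.13. Tie1 read 101.8 against 84.1 and the von Willebrand factor gene Vwf 144.0 against 123.7, while Eng stood at 0.20 and Esam at 0.15. Tie1 met the limit only in the nicotine pool. Among smooth muscle genes Cald1 stood at 0.22, Acta2 and Mylk at 0.15 and Smtn at -0.22. None of the endothelial genes or of 5 smooth muscle genes (median 0.15) reached 1.25-fold.

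Vim stood alone among the genes of extracellular matrix and fibrosis. Of 20 measured, 14 were higher and 6 lower, where 51.5% of all measured genes were higher. The median was 0.06, and Vim was the only 1 past 1.5-fold. The matrix genes Fn1 (341.2 against 291.7) and Col1a1 (106.1 against 93.4) were slightly higher, and Col4a2 of basement membranes (286.6 against 358.4) and Ccn2, a growth factor induced by TGF-beta (343.6 against 428.3), were lower. Mmp14 read 98.6 against 82.9.

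By their brightest probe sets, podocyte genes other than Uchl1 had log2 ratios between -0.07 for Nphs1, the slit diaphragm protein nephrin, and 0.21 for Dag1. A second measured probe set of Dag1 read 240.6 against 154.1, a log2 ratio of 0.64, past 1.5-fold. Actn4 stood at 0.12, and Podxl and Synpo stood at 0.06 and -0.05. Markers of the proximal tubule had a median of -0.03, with 8 higher and 13 lower. Its furthest members were Gatm at 0.40 and Slc9a3, the sodium-proton exchanger, at -0.39 (302.2 against 396.5, and 402.9 against 523.4 in SHR), followed by Amn at 0.20 and the organic anion carrier Slc22a8 at -0.17. Collecting duct genes had a median of 0.04, with 11 of 15 higher, where 51.5% of all measured genes were. Krt18, 1 of the 0.727% of genes past 1.5-fold on the higher side, led them at 0.70, followed by the sodium channel subunit Scnn1a at 0.44 (171.1 against 126.6), the water channel Aqp4 at 0.33 and the keratin Krt19 at 0.31, while the subunits Scnn1b and Scnn1g stood at -0.06 and -0.17. Its partner keratin Krt8 read 565.3 against 562.0.

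Of 12 measured genes of the thick ascending limb and distal convoluted tubule, 7 were higher and 5 lower, with a median of 0.02. The claudins, tight junction proteins grouped after their values were seen, included Cldn19 at 141.2 against 223.1, 1.58-fold lower, and Cldn16 at 63.9 against 90.7, 1.42-fold lower. These 2 claudins form the paracellular route for magnesium and calcium in the thick ascending limb. In SHR, Cldn19 read 193.3 against 147.1 and Cldn16 66.3 against 70.9. Of the 9 claudins measured, 6 were lower and 3 higher, where 48.5% of all measured genes were lower. Cldn3, Cldn7 and Cldn16 met the limit only in the saline pool, so they could only count as lower. Cldn10 of the thick ascending limb was among the higher, at 0.04. Other genes of that segment, the sodium-potassium-chloride carrier Slc12a1 and the potassium channel Kcnj1, stood at -0.13 and 0.06, with the kinase Wnk1 at 0.13 and the calcium-sensing receptor Casr at -0.12.

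Genes of nicotine's receptors and of the angiotensin system gave few measured values. None of the 24 nicotinic and muscarinic receptor and related genes on the array was measured in BN, and their highest BN signal was 64.4, that of Chrna7 under saline, against 34.6 under nicotine. Of 11 angiotensin system genes on the array 5 were measured, 4 higher and 1 lower, where 51.5% of all measured genes were higher. Agt, which encodes angiotensinogen, read 89.9 against 65.2. It met the limit only in the nicotine pool, so it could only count as higher. The angiotensin receptor gene Agtr1a had a log2 ratio of 0.12 by its brighter probe set and -0.13 by its other measured one. Enpep, which degrades angiotensin, read 952.3 against 880.9. Mme, encoding neprilysin, read 968.1 against 969.4, and Ace read 51.4 against 42.2, under the limit. The aminopeptidase Anpep stood at 0.05, and Agtr1b, Agtr2, Cma1, Lnpep and Mas1 lay under the floor in both pools. Growth regulators of nephron development had a median of 0.06 over 11 measured genes, with Igf1 (118.1 against 99.3) and Igf1r (231.3 against 194.3) both at 0.25, Bmp4 at 0.11 and Hes1 at 0.10.

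By their brightest probe sets, detoxification genes were mostly flat apart from Cbr1 and Glrx. Cbr1 met the limit only in the nicotine pool. A second measured probe set of Glrx read 118.2 against 115.1, a log2 ratio of 0.04. Of 41 genes of glutathione, thiol and carbonyl metabolism, 23 were higher and 18 lower, where 51.5% of all measured genes were higher. Their median was 0.02. Gstm1, of a family with near-identical members, read 400.8 against 310.1, and Nfe2l2, the factor that induces many of these enzymes, 624.1 against 491.5. Its classical target Nqo1 stood at 0.14 and Gclc at -0.06. Of 17 measured cytochrome P450 and conjugation genes, 9 were higher and 8 lower. The furthest were the carboxylesterase Ces2c at -0.49 and Nat8, which completes mercapturic acids, at -0.36 (932.5 against 1200.8), then Cyp4a8 at 0.19 and Cyp4f1 at -0.14.

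In glucose and amino acid metabolism, 13 of 35 measured genes were higher and 22 lower, with a median of -0.04. Besides Hk1 and Gpt, Prodh, which begins the breakdown of proline, read 209.4 against 283.9, and Ldha, a lactate dehydrogenase subunit, 792.7 against 647.2. The gluconeogenic enzymes Pck1 and Fbp1 stood at -0.04 and -0.06. Fatty acid oxidation had a median of 0.01 over 26 genes, with the fatty acid carrier Cd36 at 0.34 (201.5 against 159.5), Acot2 at -0.20 and Fabp3 at -0.16. Of 32 proteasome genes 9 were higher and 23 lower, the median was -0.05, where 51.5% of all measured genes were higher and 48.5% of all measured genes were lower, and no proteasome gene reached 1.25-fold. Psmd9 stood at 0.22, Psmc1 at -0.20, Psma3 at 0.19 and Psma2 at -0.17. Among 9 semaphorin and plexin genes 8 were lower, with a median of -0.11, and only Plxna3 passed 1.5-fold. Sema4b at -0.21, Plxnb1 at -0.14 and Sema3b at -0.12 came next. Plxna3 and Plxnb1 met the limit only in the saline pool. In nuclear transport, Ipo7 at 0.92 and Xpo5 at -0.76 were followed at a distance by Ipo5 at -0.28 and Rangap1 at -0.25, and the 20 measured genes had a median of -0.09. Of 3 measured phosphodiesterase genes, Pde6d at -0.25 and Pde2a at 0.09 lay nearer 0 than Pde8a.

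Further lists held single members apart from the rest. The counts below stand beside 51.5% higher and 48.5% lower over all measured genes. Of 14 measured immediate early genes, 7 were higher and 7 lower, with Sertad1 lowest, then Junb, a subunit of the AP-1 factor, at 75.4 against 105.2, and Ier3 highest at 198.1 against 150.8, and Egr1 at -0.29. Of 11 hypoxia genes, 3 were higher and 8 lower, with P4ha1, which hydroxylates collagen, at 129.4 against 93.8 and the glucose carrier Slc2a1 at 157.1 against 187.6, then Ddit4 at -0.18 and Kdm3a at 0.10. Of 23 heat shock and unfolded protein genes, 15 were higher and 8 lower, and the chaperone Hspa4 led at 119.7 against 84.7, followed by Dnajb1 at 0.28, Herpud1 at -0.22 and Pdia3 at 0.17. Of 10 cell cycle genes, 6 were higher and 4 lower; besides Mcm7, Rrm1, a subunit of ribonucleotide reductase, read 78.8 against 100.8, and the inhibitors Cdkn1b and Cdkn1a stood at 0.17 and 0.16. Of 24 autophagy and lysosome genes, 10 were higher and 14 lower. Apart from Tecpr1 these included Tfeb, the factor that switches on lysosomal genes, at 102.9 against 142.0, and the kinase Ulk1 at -0.30. Of 17 genes of cholesterol and fatty acid synthesis, 12 were higher and 5 lower. Srebf2, which drives cholesterol synthesis, read 172.8 against 227.2, and its target Dhcr7 412.0 against 340.3, while Acaca stood at -0.24 and Lss at 0.24. Of 11 apoptosis genes, 6 were higher and 5 lower, from -0.15 for Bid and for Mcl1 to 0.15 for Tnfrsf1a and 0.18 for Bcl2l1. Of the 8 adipocyte markers on the array 2 were measured, Thrsp (134.6 against 102.0) and the lipase Lpl (580.6 against 527.6).

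**Figure D4:**
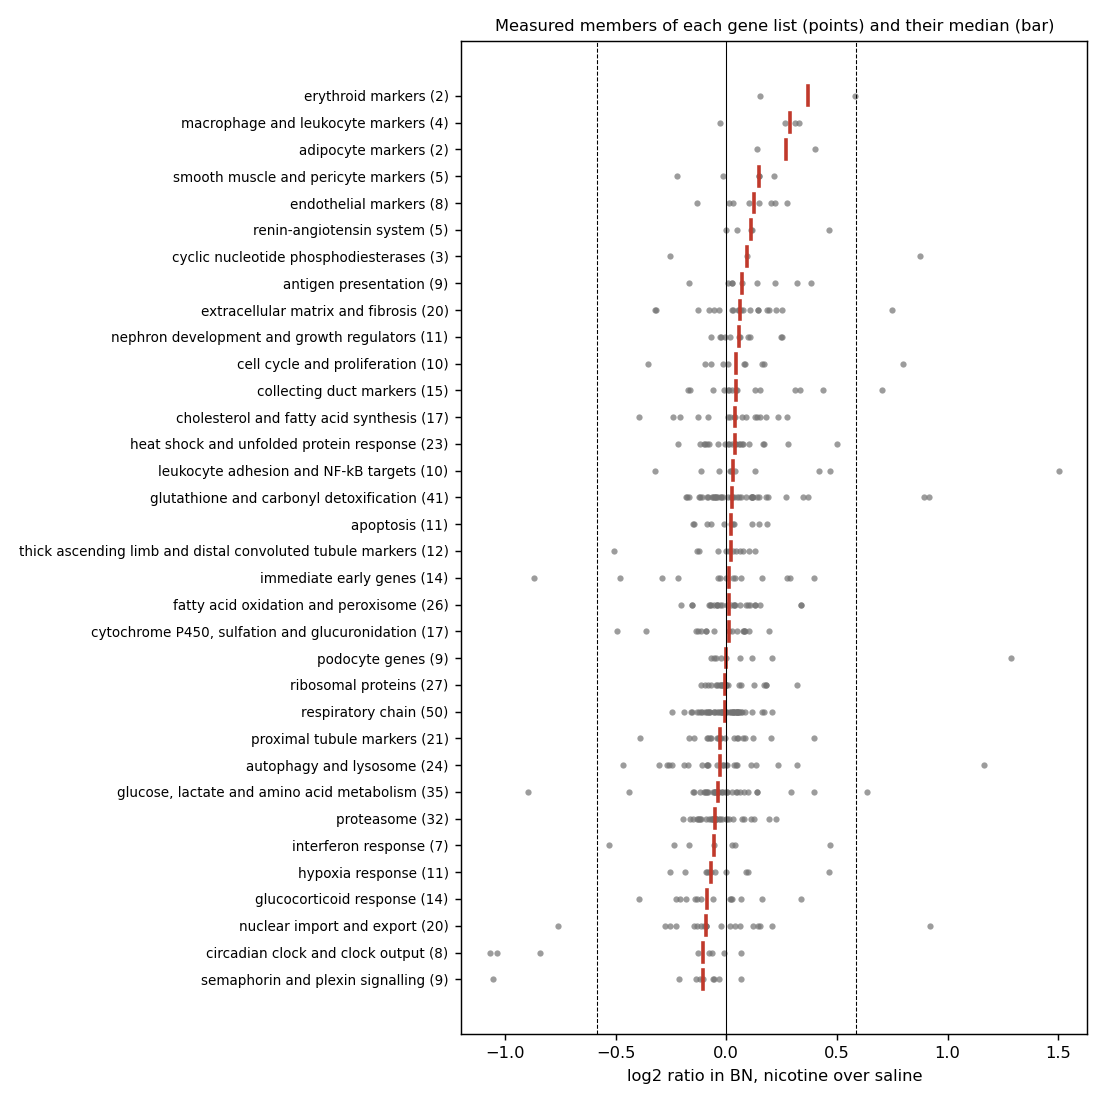
The log2 ratio of nicotine over saline in BN (horizontal axis) for every measured member of each gene list, 1 grey point a gene and a red bar at the list's median, with the number of measured genes in brackets and dashed lines at 1.5-fold. Medians run from -0.11 for 9 semaphorin and plexin genes to 0.37 for 2 erythroid markers, and the clock list has 3 points past the dashed lines.

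Genes with a second measured probe set show how far other probes repeat a ratio in the same pools. There were 643 such pairs over 577 genes, and 341 of them (53.0%) had the same direction in both probe sets. Of the 77 genes past 1.5-fold, only 5 had another measured probe set. Nr1d2 was the only 1 of these whose second probe set also passed 1.5-fold. In all 17 other probe sets passed 1.5-fold, and 16 of them belonged to genes whose brightest probe set did not, such as Larp1 (0.86 beside -0.10), Rpl7 (-1.01 beside -0.05) and the kinase gene Src (-0.98 beside -0.29). For Marcks it stood at 0.30 beside 0.73, for Efnb1 at -0.14 beside -0.64, and for Glrx at 0.04 beside 0.89. For Kat14 it had the opposite direction, at 0.17 beside -0.59. Actr2 repeated at 0.37 beside 0.44. All others of the 77 rest on 1 measured probe set each. Of 924 measured probe sets with no gene symbol or several, 6 passed 1.5-fold on the higher side and 12 on the lower side. Over all 6936 measured probe sets, named or not, 0.735% were that much higher and 0.894% that much lower.

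**Figure D5:**
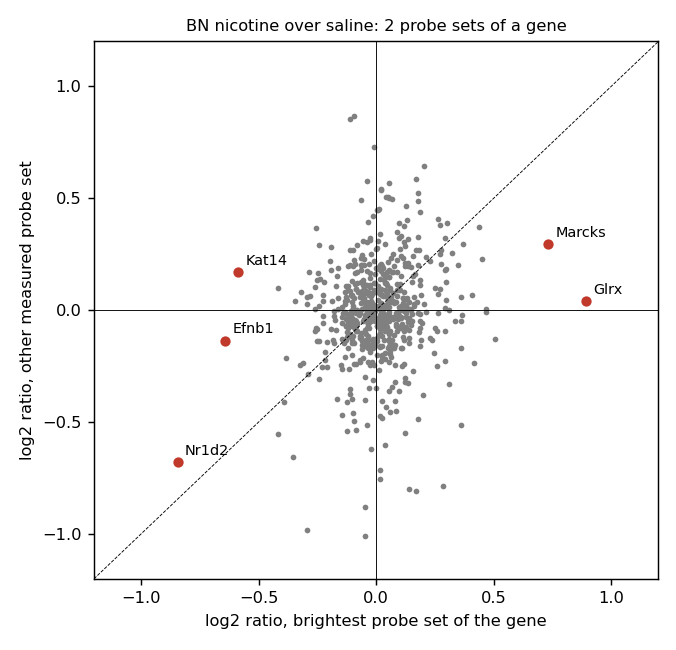
The BN log2 ratio of a gene's brightest probe set (horizontal axis) against that of another measured probe set of the gene (vertical axis), 643 pairs, with equality as a dashed line. The 5 red points are genes past 1.5-fold by the brightest probe set; Nr1d2 lies near the line at -0.84 and -0.68, while Glrx lies near 0 on the vertical axis.

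By ratio alone, 8 of the 77 genes stayed past 1.5-fold in the same direction across all 8 alternative ways of processing listed with the methods. These were Ipo7, Slc16a1 and Vim on the higher side and Dbp, Nr1d1, Cd2bp2, S100a13 and Sertad1 on the lower side. Some of the 8 alternatives could not take these genes out. Leaving out the filter changes no ratio, and a lower floor cannot make a ratio smaller. Each of these genes has 1 probe set on the array, so a mean over probe sets leaves it as it was. A further 19 of the 77 stayed past 1.5-fold in 7 of the 8 alternatives, among them Nr1d2, Hk1, Glrx, Icam1 and Cldn19. The smallest log2 ratio of Icam1 was 0.39, with the higher floor, and that of Uchl1 0.17. In these counts a gene did not have to stay above the limit for a measured gene. Under the floor at the 60th percentile 27 of the 77 kept such a ratio, but only 12 also met the limit there.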

How the data were processed

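Kidney RNA pools of 4 groups were each measured on 1 array. The authors deposited MAS5 signal intensity on a linear scale, per the submitters' processing notes; the sources used here do not state its version or settings. Signals had nearly the same trimmed mean on every array and were used as deposited. From them, log2 ratios of nicotine over saline were computed with the floor and limit stated in the report, using pandas 2.3.3 and, for other normalisations, limma 3.58.1 in R 4.3.3. Of 15866 probe sets, 12783 had 1 gene symbol, and 312 had several; 12748 were updated through the gene identifier to RefSeq symbols. A gene was represented by its probe set with the highest mean signal. With 1 array a group there was no test; the number of arrays limits all precision.

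The members and 38 gene lists were chosen with earlier results of these data known. Named were the 25 largest ratios in each direction, the 15 largest in each direction relative to genes of like signal, the 4 largest members of each list, members past 1.5-fold, clock and angiotensin genes, genes past 1.5-fold in both strains, and those with a second measured probe set. Other names, families included, were chosen after their values were seen. The ratio steps were tested on simulated arrays. The 8 alternatives were a floor at the 20th or 60th percentile, 50 added in place of a floor, quantile normalisation, cyclic loess, centring on the median, a mean over every probe set of a gene, and no filter on low genes.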

Additional observations from a re-analysis of the deposited data

Results flagged for a closer look

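Stat5a was past 1.5-fold in both strains in opposite directions: its log2 ratio of nicotine over saline was -0.72 in BN and 0.60 in SHR. It was the only measured gene of this kind, each ratio rests on 1 pool against 1 pool and a single probe set, and the difference between strains was not tested.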

How the results depend on the processing

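The counts of genes past a fold depend on how low signals are treated. A floor at the 20th percentile gave 196 genes at least 1.5-fold higher and 256 lower, and 59 and 70 passed 2-fold. A floor at the 60th percentile gave 5 and 7, and 0 and 1 beyond 2-fold. With 50 added in place of a floor they were 8 and 9, and 0 genes were 2-fold lower. Without a filter on low genes 59 were 1.5-fold higher and 63 lower, and with each gene as the mean of its probe sets 3 were 2-fold lower. Quantile normalisation, cyclic loess and centring kept all 4 counts within 1.5 times, and 75, 77 and 75 of the 77 genes stayed past 1.5-fold. None of the 77 took the opposite sign under these 8 alternatives, though the ratio of some became 0 under the higher floor. Of 198 single genes, the log2 ratio moved by over 0.18, the SD of a single probe set from pairs of the same gene, in 67 under the higher floor, 62 with 50 added, 27 with the mean of probe sets and 3 under the lower floor. No replicate could be left out, and no paired analysis was possible because each group is 1 array. Dim genes have only bounds: 3 of the 77 rest on a BN signal under the floor.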
